A study of Mus musculus with 9 samples.

Results

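The 33 genes described here code for the steps that carry glucose into the cell and on to lactate, for the proteins that set the pace of those steps, and for the enzymes of the pentose phosphate pathway. They were taken by name from a list of 3 glucose transporters, 3 hexokinases, the other enzymes of glycolysis, the lactate and pyruvate proteins, the transcription factor gene Hif1a and 5 pentose phosphate enzymes. All 33 had a row among the 26770 gene rows of the expression table, and all 33 passed the filter on low counts that left 15447 genes for testing. Aldoa had a second row, for a separate annotated gene of the same name with 1 to 17 counts per library, which was not tested.

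The RNA came from spleen monocytes of wild-type (WT) mice, sequenced as 9 libraries that fall into 3 groups of 3. The LPS with octanal group was primed with a low dose of lipopolysaccharide (LPS, a bacterial cell wall component sensed by Toll-like receptor 4) and then given 20 µM octanal, an aldehyde that activates the olfactory receptor Olfr2. Its single labels read 18, 19 and 20 hours of octanal, and the study's design text gives 18 hours for the group. The LPS group received LPS at 40 ng/ml for 5 hours. The untreated group received the solvent DMSO at a dilution of 1 in 1000, with labels of 1000, 1001 and 1002 for its 3 samples. DMSO is named in the labels of the untreated samples and no others, and how long the LPS samples stayed in culture after LPS is not said, so octanal, solvent and time in culture cannot be told apart. Whether the 3 samples of a group are separate animals or cultures is not stated either. The p-values therefore reflect the spread of these samples alone, which may be technical.

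In glycolysis, hexokinases trap glucose as glucose phosphate, phosphofructokinase commits it to breakdown, and the lower enzymes make ATP, NADH and pyruvate. Lactate dehydrogenase turns pyruvate into lactate and returns NAD, while pyruvate dehydrogenase kinases hold pyruvate back from the mitochondrial cycle. The pentose phosphate pathway branches off at glucose phosphate and makes NADPH, which phagocytes use for the oxidative burst and for repair, and sugar phosphates for nucleotides. Myeloid cells that meet LPS are known for a shift towards glycolysis in which the factor encoded by Hif1a takes part.

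Most genes of the set that changed with LPS were lower, in particular the transporter Slc2a3, the hexokinase Hk3, the regulator Pfkfb4 and the pentose phosphate enzymes. In LPS against untreated cells, 19 of the 33 genes passed the test (Benjamini-Hochberg adjusted p under 0.05 over all genes tested), 4 higher and 15 lower. Over all genes tested, 32.8% passed, 15.2% higher and 17.6% lower. The count in the set was 22 with DESeq2, against 40.3% of all genes. It was 8, 12 and 9 without LPS replicate 1, 2 and 3, against 15.1%, 20.7% and 18.5% of all genes. Without untreated replicate 1 and 3 it was 13 and 10, against 22.6% and 25.1%. Log2 fold changes were above 0 for 12 of the 33 genes and 50.7% of all genes. The LPS libraries lay above all untreated libraries for 9 genes of the set and below them for 15, where 26.7% and 24.8% of all genes did so. The median log2 fold change was -0.38 over the 33 genes and 0.01 over all genes tested. On the FPKM scale, limma called 9 of the set higher and 13 lower, against 26.3% and 17.2% of all genes, and the median log2 fold change of all genes moved by 0.11. With only the 6 libraries of both groups edgeR called 3 higher and 12 lower, against 10.3% and 15.9%. In bulk RNA, fewer cells of a type and less RNA per cell cannot be told apart.

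With octanal after LPS, most of the set stood above its level in LPS alone, but no gene passed the test. For LPS with octanal against LPS, edgeR called 0 of the 33 genes and 0% of all genes tested, where the lowest adjusted p was 0.051. At an unadjusted p under 0.05 there were 16 genes of the set higher, against 13.6% of all genes, and 1 lower, against 8.69%. Log2 fold changes were above 0 for 27 of the 33 genes and for 45.4% of all genes tested. All 3 LPS with octanal libraries lay above all 3 LPS libraries for 18 genes of the set, and below them for 3, where 18.3% and 19.9% of all genes did so. DESeq2 called 13 of the 33 genes higher and 0 lower, against 11.2% and 3.26% of all genes it gave an adjusted p. These 13 were Slc2a3, Slc2a6, Hk2, Hk3, Aldoa, Gapdh, Pgam1, Eno1, Pkm, Slc16a3, Pgd, Tkt and Taldo1. An edgeR fit of only the 6 libraries of both groups called 6 of the set higher and 0 lower, against 6.35% and 2.92% of all genes, and limma on FPKM called 1, Slc2a6, against 1.22%. Without LPS with octanal replicate 1 edgeR called 4 (Slc2a6, Hk2, Hk3 and Gapdh), against 3.68% of all genes. Without untreated replicate 2 it called 4 (Slc2a3, Slc2a6, Hk3 and Pgam1), against 3.33%.

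Against untreated cells, LPS with octanal libraries differed in 7 of the 33 genes by edgeR. Slc2a6, Pdk1 and Hif1a were higher, and Slc2a3, Hk3, Pfkfb4 and Pdk3 were lower. Of all genes tested, 2.63% were called higher and 6.03% lower, 8.67% in all. DESeq2 called 6 higher and 5 lower, against 6.70% and 11.4% of all genes, limma on FPKM 4 and 4, against 3.55% and 7.26%, and edgeR with only the 6 libraries of both groups 1 and 1, against 1.01% and 1.72%. The count in the set was 2 without LPS with octanal replicate 2, against 1.88% of all genes. It was 4 without LPS with octanal replicate 3, LPS replicate 3 or untreated replicate 1, against 4.21%, 4.98% and 3.95%. The median log2 fold change was 0.05 over the set and -0.01 over all genes tested. The 3 comparisons share libraries, so they are not independent of each other, and their values are given side by side without a test of likeness.

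**Figure D1:**
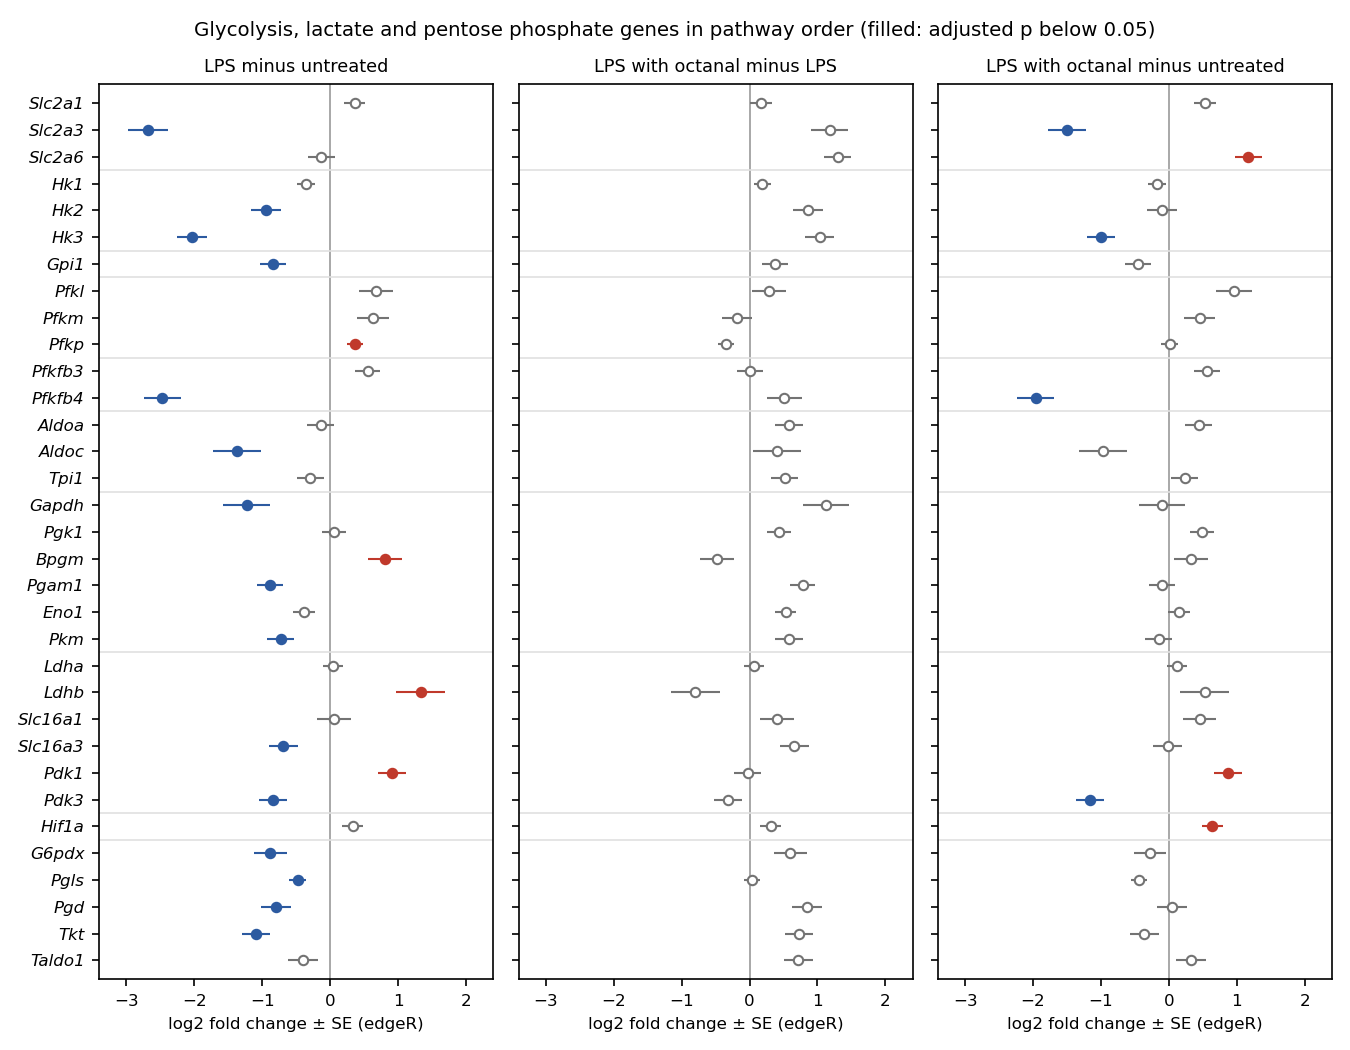
Log2 fold changes with standard errors (x axis) of the 33 genes in pathway order (rows), for the 3 comparisons (panels). Filled points passed the test: 19 in LPS minus untreated, 0 in LPS with octanal minus LPS and 7 in LPS with octanal minus untreated.

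By level, the set spans a wide range. On the FPKM scale, which divides by gene length, the mean over all 9 libraries was highest for Aldoa at 1069 FPKM, followed by Pkm at 779.7, Taldo1 at 727 and Pgd at 549 FPKM. There were 12 genes with a mean above 100 FPKM and 27 above 10 FPKM. The lowest was Aldoc, at 1.35 FPKM. Their libraries ranged from 752 to 1397 FPKM for Aldoa and from 499 to 1018 FPKM for Pkm, so the order of those neighbours overlapped. Gapdh, often used as a reference gene, was only the gene of rank 22, at 23.4 FPKM. Of the 50-base words of its longest coding transcript, 82.5% also occur in transcripts of 218 other annotated genes, so its reads can be shared with near-identical copies. That share was 72.2% for Eno1, 68.0% for Pgk1, 41.5% for Pgam1, 34.4% for Pkm, 27.0% for Ldhb, 19.3% for Gpi1 and 16.6% for Ldha. It was 13.5% for Aldoa, 10.9% for Taldo1 and 7.6% or less for the rest. How the authors' counting split such reads is not given in the sources used here, so the levels of these genes are uncertain.

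Markers of several cell types differed between the groups. All 8 LPS response genes listed, such as Tnf and Cxcl2, were called higher in LPS with octanal and in LPS, each against untreated. Of all genes, 2.63% and 15.2% were called higher there. Markers of neutrophils, cells that the monocyte preparation could hold, summed to between 6114 and 13753 CPM (counts scaled to a common library size) in LPS with octanal libraries, 1896 and 2348 CPM in LPS libraries, and 14038 and 27311 CPM in untreated libraries. In LPS against untreated cells, 14 of the 15 neutrophil markers were called lower, 8 of 12 macrophage markers lower and 11 of 11 T cell markers higher. The shares of all genes were 17.6% lower and 15.2% higher. In LPS with octanal against untreated cells, 6 neutrophil and 9 macrophage markers were called lower, and 1 macrophage marker higher. Here the shares of all genes were 6.03% lower and 2.63% higher. T cell markers summed to between 1386 and 2066 CPM with octanal, 2102 and 2806 CPM in LPS, and 622 and 1503 CPM in untreated libraries. Of the 13 classical monocyte markers, Lyz2 averaged 3395, 1433 and 6609 CPM in LPS with octanal, LPS and untreated cells. Ly6c2, which defines classical monocytes, had 1.01, 0.994 and 0.625 CPM in LPS with octanal libraries, 7.90, 0.564 and 0.387 CPM in LPS libraries, and 168, 2.82 and 249 CPM in untreated libraries. This marker was near 0 in the stimulated libraries and in untreated replicate 2, which also had the lowest neutrophil sum of its group. The part of these shifts in the results below was not tested.

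**Figure D2:**
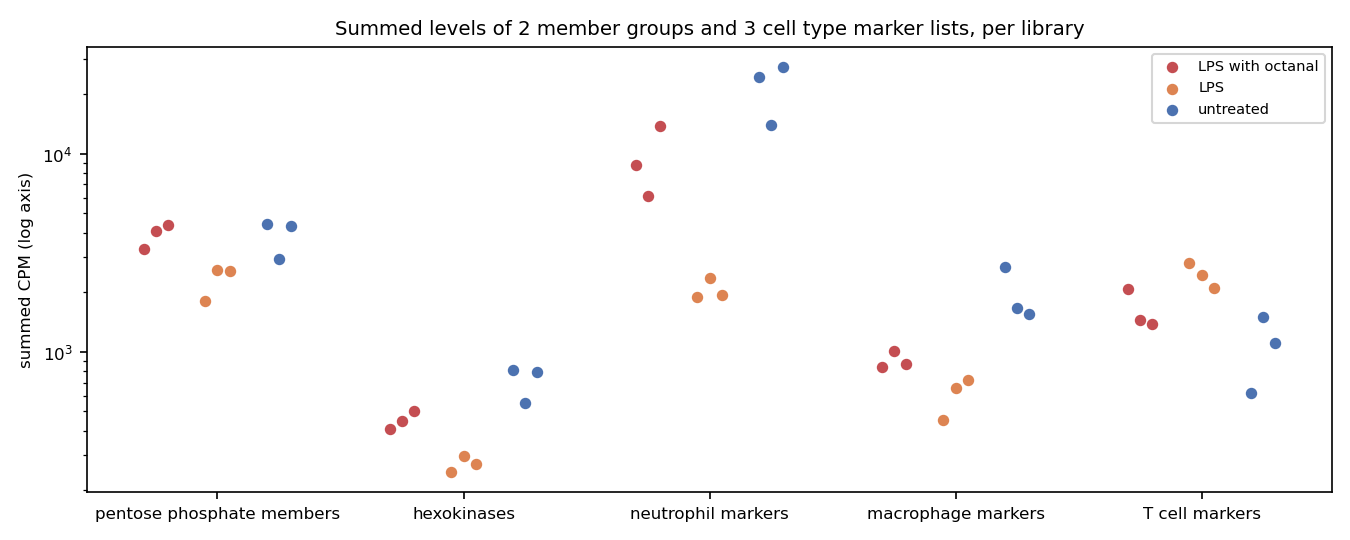
Summed CPM (log axis) of the 5 pentose phosphate genes, the 3 hexokinases and of neutrophil, macrophage and T cell markers in each library (points, coloured by group). The 3 LPS libraries held 1896 to 2348 CPM of neutrophil markers and 1803 to 2592 CPM of pentose phosphate transcripts, below all 6 other libraries for both.

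Of the glucose transporters, Slc2a3 was lower after LPS and Slc2a6 was higher with octanal. Slc2a3 (chr6:122727809-122801640, GRCm38, minus strand) codes for the high-affinity transporter GLUT3. It had 96.9, 67.9 and 149 CPM in LPS with octanal libraries, 47.3, 46.2 and 45.0 CPM in LPS libraries, and 297, 221 and 368 CPM in untreated libraries. No library of a group overlapped with another group, and octanal libraries lay between the other two groups. Slc2a3 was 6.40 times lower in LPS than in untreated cells (log2 fold change -2.68 ± 0.29 SE, adjusted p = 8.8e-04), and that call held in all 9 fits that left out a library. With octanal the log2 fold change was 1.18 ± 0.27 against LPS (adjusted p = 0.071) and -1.50 ± 0.28 against untreated (adjusted p = 0.016). The last call was lost without LPS with octanal replicate 1 (adjusted p = 0.053) or 2 (0.055), and with only the 6 libraries of both groups (0.056).

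Slc2a6 (chr2:27021363-27027998, minus strand) codes for GLUT6, a transporter of macrophage lysosomes. It had 144, 174 and 214 CPM in LPS with octanal libraries, 59.5, 86.5 and 69.4 CPM in LPS libraries, and 80.7, 62.2 and 93.5 CPM in untreated libraries. All 3 octanal libraries were above the other 6, which overlapped. The gene was 2.25 times higher with octanal than in untreated cells (log2 fold change 1.17 ± 0.20, adjusted p = 0.014), a call lost without LPS with octanal replicate 2 (adjusted p = 0.059). Against LPS the log2 fold change was 1.30 ± 0.20 (adjusted p = 0.051), one of 47 genes at that lowest value, and LPS against untreated gave -0.13 ± 0.20 (adjusted p = 0.64).

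Slc2a1 codes for GLUT1, the transporter of most cell types. It had 74.1, 67.6 and 90.3 CPM in LPS with octanal libraries, 82.4, 61.2 and 63.3 CPM in LPS libraries, and 54.2, 46.9 and 59.8 CPM in untreated libraries. Both stimulated groups lay above all untreated libraries and overlapped with each other. With edgeR none of its 3 comparisons passed (log2 fold change 0.53 and adjusted p = 0.072 with octanal against untreated, 0.36 and 0.11 for LPS against untreated). DESeq2 called it with octanal against untreated (adjusted p = 0.028), and limma on FPKM in LPS against untreated (0.040). The leading transporter thus differed by group on the FPKM scale. Slc2a3 held 19.5 ± 4.39% of the FPKM of these 3 transporters with octanal, 17.6 ± 1.03% in LPS and 57.9 ± 1.83% in untreated libraries (SD, n = 3 each). Slc2a6 held 62.5 ± 5.00%, 50.3 ± 7.26% and 28.9 ± 0.645% in the same order of groups. For both genes the exact permutation p was 0.1 in each comparison with untreated cells, 2-sided, which is the smallest that 3 against 3 libraries can give.

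The hexokinases Hk3 and Hk2 were lower after LPS. Hk3 (chr13:55005985-55021385, minus strand) is the hexokinase typical of myeloid cells. It had 206, 247 and 274 CPM in LPS with octanal libraries, 90.2, 138 and 129 CPM in LPS libraries, and 568, 363 and 528 CPM in untreated libraries. The 3 groups did not overlap, with LPS lowest and untreated highest. Hk3 was 4.09 times lower in LPS than in untreated cells (log2 fold change -2.03 ± 0.22, adjusted p = 9.1e-04, called in all 9 leave-one-out fits). Octanal gave 1.03 ± 0.21 against LPS (adjusted p = 0.058) and was 2.01 times lower than untreated (adjusted p = 0.026). This octanal call was lost without LPS with octanal replicate 1, 2 or 3 (adjusted p = 0.081, 0.099 and 0.055), LPS replicate 3 (0.051) and untreated replicate 1 or 3 (0.084 and 0.066), and with only the 6 libraries of both groups (0.057).

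Hk2, the inducible hexokinase that docks on mitochondria, had 70.3, 93.9 and 113 CPM in LPS with octanal libraries, 45.3, 60.1 and 47.6 CPM in LPS libraries, and 97.0, 76.0 and 123 CPM in untreated libraries. The octanal and untreated libraries overlapped, and both groups lay above LPS. It fell by 0.95 ± 0.22 on the log2 scale in LPS against untreated cells (adjusted p = 0.013), a call lost without LPS replicate 1 or 3 (adjusted p = 0.059 and 0.052). The other comparisons gave 0.86 ± 0.22 against LPS (adjusted p = 0.081) and -0.10 ± 0.22 against untreated (0.81). Hk1, the housekeeping hexokinase, averaged 117 ± 13.8 CPM with octanal, 103 ± 7.60 in LPS and 133 ± 19.5 in untreated cells. Its log2 fold change was -0.36 for LPS against untreated, which edgeR did not call (adjusted p = 0.064), except without untreated replicate 2 (0.011), with the filter at 10 CPM (0.039) or with the replicate block (0.040). DESeq2 called it (0.032). Hk1 held 22.8 ± 4.77% of hexokinase FPKM with octanal, 34.2 ± 6.34% in LPS and 15.2 ± 1.29% in untreated libraries. Hk3 held 63.7 ± 3.03%, 53.0 ± 6.43% and 76.1 ± 1.69% in those groups, and was the leading hexokinase by FPKM in all 9 libraries. By counts, Hk1 led in LPS replicate 1, with 45.1% against 36.5% for Hk3.

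**Figure D3:**
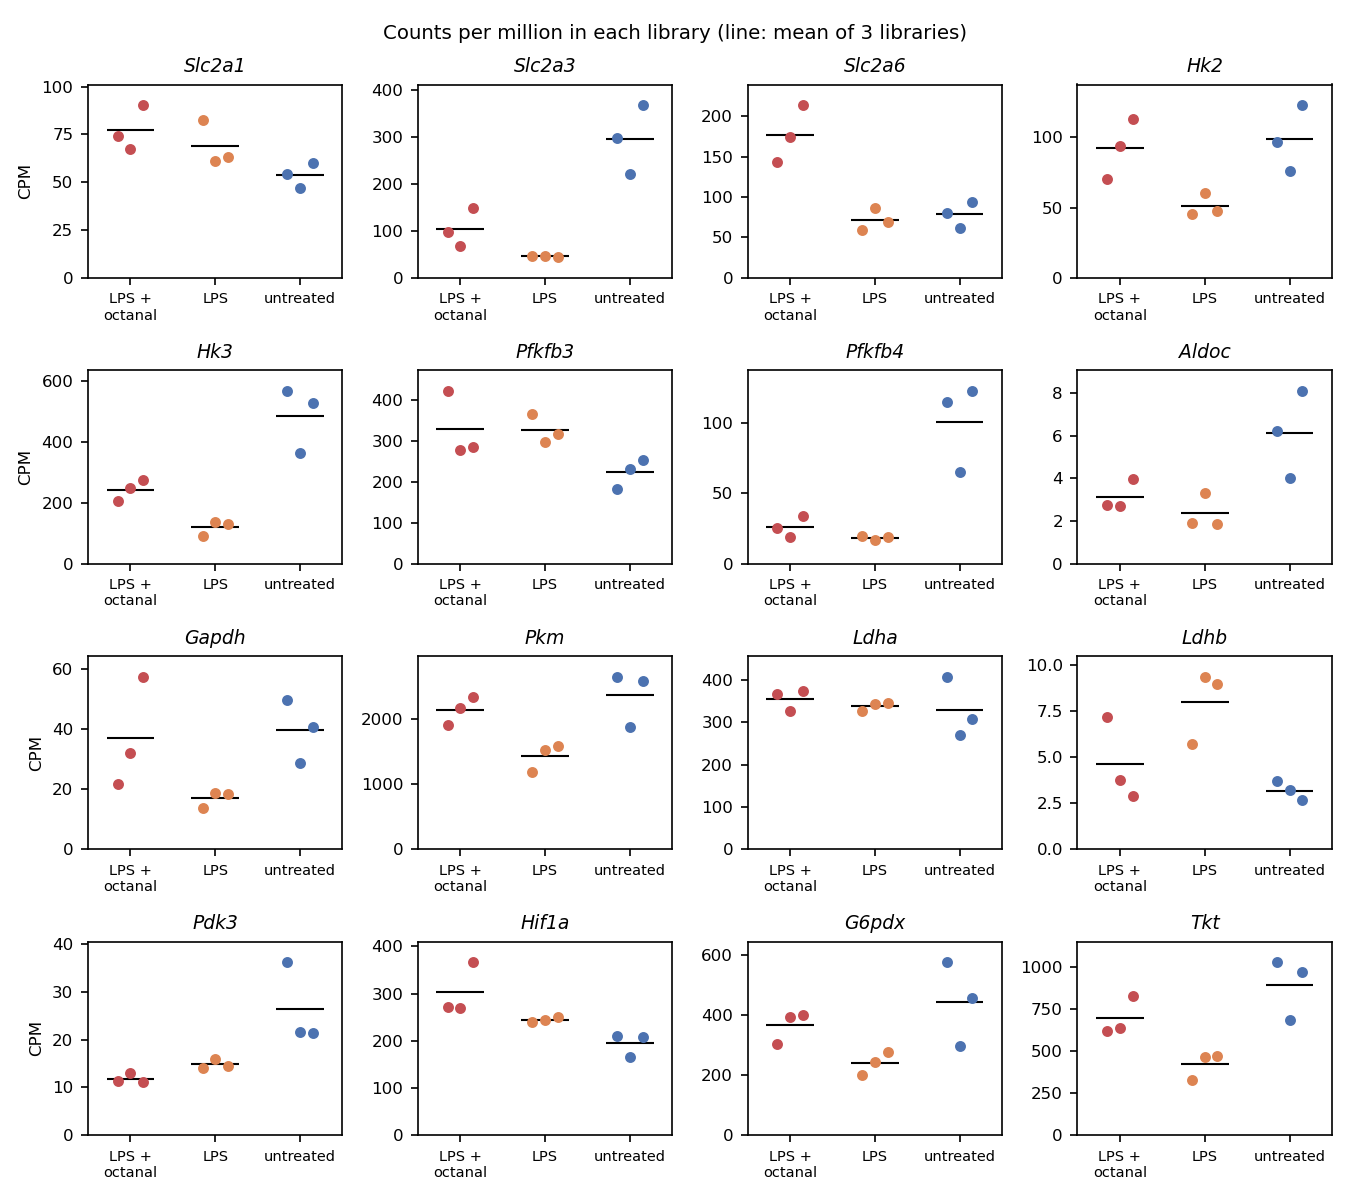
CPM (y axis of each panel, from 0) of 16 genes in each library (points) of the 3 groups, with the mean of 3 libraries (line). Slc2a3, Hk3 and Pfkfb4 show LPS libraries far below untreated ones, Slc2a6 shows octanal libraries above the other 6, and Ldha overlaps in all groups.

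The next steps split between isoforms and regulators. Gpi1, which turns glucose phosphate into fructose phosphate, averaged 429 ± 75.9 CPM with octanal, 331 ± 13.9 in LPS and 592 ± 139 in untreated cells. It was lower in LPS than in untreated cells (log2 fold change -0.84 ± 0.19, adjusted p = 0.013, called in all 9 leave-one-out fits), and with octanal against untreated it gave -0.46 (adjusted p = 0.16, and 0.037 without untreated replicate 2). The 3 phosphofructokinase genes had log2 fold changes above 0 in LPS against untreated cells, as had 50.7% of all genes. EdgeR called 1 of them higher, Pfkp, against 15.2% of all genes. Pfkp averaged 75.6 ± 3.33 CPM with octanal, 96.6 ± 10.8 in LPS and 74.9 ± 8.93 in untreated cells, a log2 fold change of 0.37 ± 0.12 for LPS against untreated (adjusted p = 0.039). That call held in 1 of 9 leave-one-out fits, the one without untreated replicate 1, and adjusted p in the others lay between 0.050 and 0.15. It was also lost with no filter on low counts (0.065) and with only the 6 libraries of both groups (0.077). Pfkl averaged 323 ± 125 CPM with octanal, 264 ± 24.3 in LPS and 165 ± 31.0 in untreated cells, and all 6 stimulated libraries were above the untreated ones. Its log2 fold change was 0.96 ± 0.26 with octanal against untreated (adjusted p = 0.051, and 0.034 without LPS with octanal replicate 1) and 0.67 ± 0.25 for LPS (adjusted p = 0.070, and 0.032 without LPS with octanal replicate 3). Other settings called Pfkl, with octanal by DESeq2 (adjusted p = 0.0055), limma on FPKM (0.044) and the replicate block (0.043), and in LPS by limma (0.027), the block (0.039) and the 6 libraries of both groups (0.035). Pfkm averaged 7.63, 8.62 and 5.58 CPM in LPS with octanal, LPS and untreated cells, with 0.63 ± 0.23 for LPS against untreated (adjusted p = 0.060, and 0.018 without untreated replicate 2). DESeq2 (0.028), limma on FPKM (0.032) and the replicate block (0.046) called Pfkm there.

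The bifunctional enzymes Pfkfb3 and Pfkfb4, which make and break the fructose bisphosphate that drives phosphofructokinase, differed: Pfkfb4 was lower in both stimulated groups and edgeR did not call Pfkfb3. Pfkfb4 (chr9:108991778-109032228, plus strand) had 25.6, 18.9 and 33.6 CPM in LPS with octanal libraries, 19.6, 16.6 and 18.6 CPM in LPS libraries, and 115, 65.2 and 123 CPM in untreated libraries. Both stimulated groups overlapped and lay far below the untreated libraries. Pfkfb4 was 5.52 times lower in LPS (log2 fold change -2.47 ± 0.27, adjusted p = 9.5e-04) and 3.89 times lower with octanal (-1.96 ± 0.27, adjusted p = 0.0056) than in untreated cells, and both calls held in all 9 leave-one-out fits. Pfkfb3 (chr2:11471433-11554077, minus strand) had 422, 277 and 286 CPM in LPS with octanal libraries, 366, 296 and 317 CPM in LPS libraries, and 183, 232 and 254 CPM in untreated libraries. The stimulated libraries all lay above the untreated ones and overlapped with each other. Its log2 fold change was 0.55 ± 0.19 for LPS against untreated (adjusted p = 0.054, and 0.035 without LPS with octanal replicate 1) and 0.56 ± 0.19 with octanal (adjusted p = 0.10). DESeq2 called Pfkfb3 higher in both (adjusted p = 0.034 and 0.041), and limma on FPKM in LPS against untreated (0.025). Pfkfb4 made up 10.2 ± 3.39% of the FPKM of this pair with octanal, 7.40 ± 0.396% in LPS and 38.8 ± 9.40% in untreated libraries, and no untreated library overlapped with the others.

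**Figure D4:**
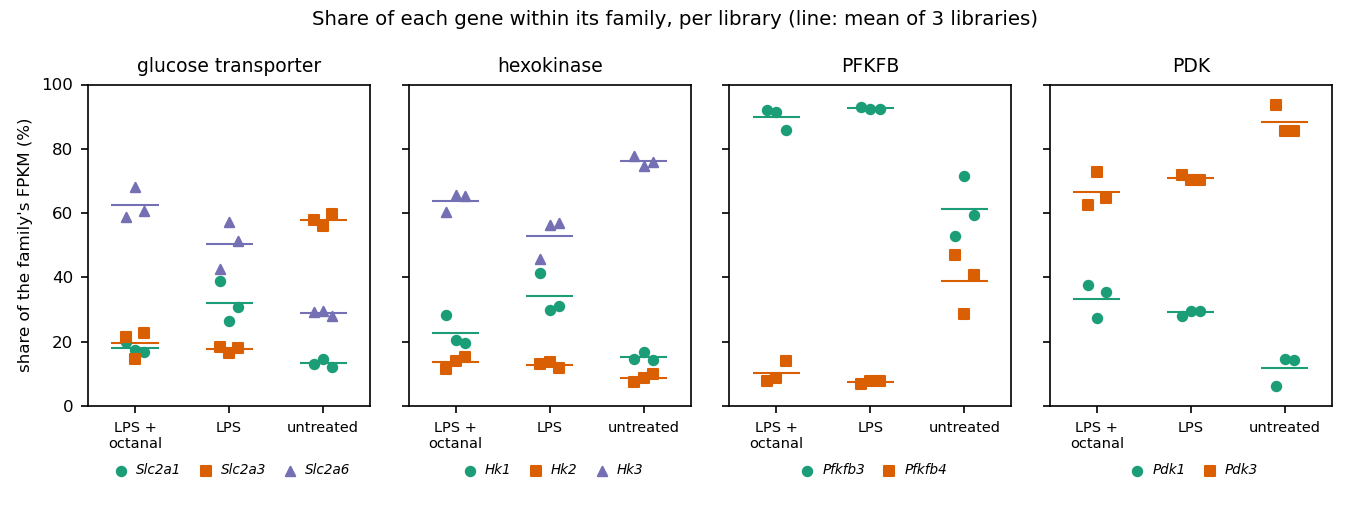
Share of each gene in the summed FPKM of its family (y axis, percent) in each library (points) of the 3 groups, with the mean of 3 libraries (line). Slc2a3, Pfkfb4 and Pdk3 hold larger shares in untreated libraries than in all stimulated ones, and Hk3 leads the hexokinases in every library.

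Among the enzymes that split and rearrange the sugar, edgeR called Aldoc. Aldoa, the main aldolase with at least 99.8% of aldolase FPKM in each group's mean, averaged 2153 ± 301 CPM with octanal, 1440.3 ± 257 in LPS and 1590.1 ± 253 in untreated cells. EdgeR did not call Aldoa, and DESeq2 did with octanal against LPS (adjusted p = 0.028). Aldoc, the aldolase best known from brain, had 2.73, 2.69 and 3.95 CPM in LPS with octanal libraries, 1.90, 3.32 and 1.88 CPM in LPS libraries, and 6.24, 4.03 and 8.11 CPM in untreated libraries. The untreated libraries were above all others at these low levels. Its log2 fold change was -1.37 ± 0.35 in LPS against untreated cells (adjusted p = 0.019), lost without LPS replicate 1 or 3 (adjusted p = 0.074 and 0.069) or untreated replicate 3 (0.058). Tpi1, which interconverts the triose phosphates, averaged 225 ± 27.1, 157 ± 40.3 and 192 ± 30.4 CPM in LPS with octanal, LPS and untreated cells and was not called by edgeR.

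Of the 6 lower enzymes of the pathway, 3 were called lower in LPS against untreated, Gapdh, Pgam1 and Pkm, and 1 higher, Bpgm. Of all genes tested, 17.6% were called lower and 15.2% higher. Gapdh, which yields NADH, had 21.7, 32.0 and 57.3 CPM in LPS with octanal libraries, 13.6, 18.7 and 18.3 CPM in LPS libraries, and 49.4, 28.7 and 40.6 CPM in untreated libraries. LPS libraries were lowest, and octanal and untreated ones overlapped. Gapdh was 2.35 times lower in LPS than in untreated cells (log2 fold change -1.23 ± 0.34, adjusted p = 0.026). That call was lost without LPS replicate 1, 2 or 3 (adjusted p = 0.093, 0.057 and 0.063) and untreated replicate 1 or 3 (0.077 and 0.061). Pkm, the pyruvate kinase that closes the pathway, had 1913, 2180.5 and 2348 CPM in LPS with octanal libraries, 1186, 1529 and 1582 CPM in LPS libraries, and 2655, 1875 and 2593 CPM in untreated libraries. Here too the LPS libraries were lowest, without overlap with untreated ones. The log2 fold change was -0.73 ± 0.20 for LPS against untreated (adjusted p = 0.023), and the call was lost without any 1 of the LPS libraries (adjusted p = 0.091, 0.055 and 0.054 without replicate 1, 2 and 3) or untreated replicate 1 or 3 (0.061 and 0.064). A fit of only the 6 libraries of both groups gave Pkm an adjusted p of 0.058.

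Pgam1, the phosphoglycerate mutase, averaged 447 ± 41.7 CPM with octanal, 260.1 ± 48.3 in LPS and 481 ± 105 in untreated cells, and was lower in LPS by every leave-one-out fit (log2 fold change -0.89 ± 0.19, adjusted p = 0.011). Bpgm, which makes the bisphosphoglycerate that red cells use to tune haemoglobin, averaged 27.9 ± 4.27, 38.9 ± 5.00 and 22.4 ± 8.62 CPM in LPS with octanal, LPS and untreated cells, a log2 fold change of 0.80 ± 0.25 for LPS against untreated (adjusted p = 0.037). The Bpgm call held in 2 of 9 leave-one-out fits, those without LPS with octanal replicate 1 or untreated replicate 2, and adjusted p in the other 7 lay between 0.052 and 0.11, and it was 0.067 with only the 6 libraries of both groups. For LPS with octanal against untreated, Bpgm had a log2 fold change of 0.32 (adjusted p = 0.43, and 0.036 without untreated replicate 2). Markers of erythroid cells, which are rich in Bpgm, summed to between 357 and 658 CPM with octanal, 265 and 751 CPM in LPS, and 748 and 1559.6 CPM in untreated libraries. Pgk1, which makes ATP, averaged 532, 395 and 379 CPM and Eno1, the enolase, 535, 371 and 482 CPM in LPS with octanal, LPS and untreated cells. Neither was called by edgeR, while DESeq2 called Eno1 with octanal against LPS (adjusted p = 0.020). EdgeR gave Eno1 -0.38 ± 0.16 for LPS against untreated (adjusted p = 0.099, and 0.039 without untreated replicate 2).

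At the lactate and pyruvate branch, Ldha passed no edgeR test. Ldha (chr7:46841475-46855627, plus strand), the subunit that favours lactate, had 368, 326 and 375 CPM in LPS with octanal libraries, 327, 344 and 345 CPM in LPS libraries, and 408, 269.9 and 307 CPM in untreated libraries. All 3 groups overlapped. Log2 fold changes were 0.12 ± 0.15 with octanal against untreated, 0.07 ± 0.15 with octanal against LPS and 0.04 ± 0.15 for LPS against untreated (adjusted p = 0.65, 0.80 and 0.84), which does not show that the levels were equal. Ldhb, the subunit that favours pyruvate, had 7.19, 3.79 and 2.90 CPM in LPS with octanal libraries, 5.71, 9.39 and 9.02 CPM in LPS libraries, and 3.69, 3.21 and 2.69 CPM in untreated libraries. The LPS libraries were above the untreated ones, and the octanal libraries overlapped with both. Ldhb was 2.51 times higher in LPS than in untreated cells (log2 fold change 1.33 ± 0.36, adjusted p = 0.023), a call lost without LPS replicate 2 or 3 (adjusted p = 0.075 and 0.069) or untreated replicate 3 (0.065). Even so, Ldha kept a mean of 98.4, 97.2 and 98.8% of lactate dehydrogenase FPKM in LPS with octanal, LPS and untreated cells.

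Slc16a3, the exporter MCT4 that carries lactate out of glycolytic cells, had 113, 104 and 146 CPM in LPS with octanal libraries, 67.5, 94.8 and 66.8 CPM in LPS libraries, and 117, 98.7 and 153 CPM in untreated libraries. Its log2 fold change of -0.69 ± 0.21 for LPS against untreated passed (adjusted p = 0.034) but not without LPS replicate 1 or 3 (adjusted p = 0.12 and 0.11) or untreated replicate 1 or 3 (0.061 and 0.11). Nor did it pass with limma on FPKM (0.099), with only the 6 libraries of both groups (0.051) or with the replicate number as a block (0.057). Slc16a1, the bidirectional lactate carrier MCT1, averaged 40.3, 30.5 and 29.5 CPM in LPS with octanal, LPS and untreated cells and was not called by edgeR.

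The pyruvate dehydrogenase kinases Pdk1 and Pdk3, which switch off the entry of pyruvate into the mitochondrial cycle, went in opposite directions. Pdk1 averaged 14.6 ± 2.42 CPM with octanal, 14.9 ± 1.54 in LPS and 7.95 ± 1.72 in untreated cells. It was higher in LPS (log2 fold change 0.91 ± 0.20, adjusted p = 0.012, called in all 9 leave-one-out fits) and with octanal (0.87 ± 0.20, adjusted p = 0.034), each against untreated. The octanal call held in 2 of 9 leave-one-out fits, those without untreated replicate 2 or 3, with adjusted p between 0.053 and 0.089 in the other 7, and was lost with the replicate block (0.066) and with only the 6 libraries of both groups (0.090). Pdk3 (chrX:93764607-93832201, minus strand) had 11.37, 13.02 and 11.13 CPM in LPS with octanal libraries, 14.02, 15.97 and 14.41 CPM in LPS libraries, and 36.15, 21.64 and 21.53 CPM in untreated libraries. The groups did not overlap, with octanal lowest. Pdk3 was 2.23 times lower with octanal (log2 fold change -1.16 ± 0.21, adjusted p = 0.015, called in all 9 leave-one-out fits) and 1.79 times lower in LPS (-0.84 ± 0.21, adjusted p = 0.017), each against untreated. The LPS call was lost without LPS replicate 1 or 3 (adjusted p = 0.059 and 0.052), and the octanal call with only the 6 libraries of both groups (0.055). Pdk1 took 33.4 ± 5.41% of the FPKM of the pair with octanal, 29.1 ± 0.888% in LPS and 11.7 ± 4.71% in untreated libraries.

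Hif1a (chr12:73901375-73947530, plus strand), the oxygen-regulated factor whose targets include many glycolytic genes, had 272, 269.7 and 366 CPM in LPS with octanal libraries, 240.4, 244 and 249.8 CPM in LPS libraries, and 211, 165 and 207 CPM in untreated libraries. The groups did not overlap and stood highest with octanal. It was 1.55 times higher with octanal than in untreated cells (log2 fold change 0.64 ± 0.15, adjusted p = 0.032). That call held in 1 of 9 leave-one-out fits, the one without LPS with octanal replicate 1, with adjusted p between 0.051 and 0.097 in the other 8, and was lost with only the 6 libraries of both groups (0.10). LPS gave 0.33 ± 0.15 against untreated (adjusted p = 0.11, and 0.020 by limma on FPKM), and octanal 0.31 ± 0.15 against LPS (adjusted p = 0.25). Of 7 HIF regulators, Hif1an (0.43, adjusted p = 0.018) and Egln1 (0.39, adjusted p = 0.034), both hydroxylases that curb HIF, were called higher in LPS against untreated, against 15.2% of all genes. With octanal against untreated edgeR called 0 of the 7, against 2.63% of all genes higher and 6.03% lower. At an unadjusted p under 0.05, 1 of the 7 was higher, against 11.0% of all genes. Of 14 known HIF targets outside glycolysis, LPS against untreated called Kdm3a higher (log2 fold change 0.70, adjusted p = 0.012) and 4 lower, against 15.2% and 17.6% of all genes. The 4 were Vegfa at -1.07 (0.013), Mxi1 at -1.08 (0.021), Ndrg1 at -0.63 (0.033) and Car9 at -1.34 (0.039). In LPS with octanal against untreated, 0 of the 14 passed edgeR's adjusted test, with 4 higher and 3 lower at an unadjusted p under 0.05, against 11.0% and 16.4% of all genes. Their median log2 fold change was 0.17 in LPS and 0.08 with octanal, each against untreated.

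Promoters were searched for the core of the hypoxia response element that HIF binds, ACGTG or GCGTG, on both strands of the 250 bases before each RefSeq transcript start. CACGTG reads as ACGTG on both strands and counts on each. RefSeq windows of build GRCm38.p6 were found for 32 of the 33 genes, 46 windows in all, and Slc2a3 had none in the table used. A match lay in 37 of the 46 windows (80.4%), against 53.9% of 13411 windows of tested genes and 38.6% of all 32851 windows. Median GC content was 60.4%, 59.2% and 52.4% in these 3 sets of windows. Counted by gene, 29 of the 32 had a match in any window, and no share by gene was computed for all genes. Windows of the same gene can overlap, as for Eno1, Aldoa and Pfkm, so the same match can count in each. The windows below lie outside annotated exons and belong to the transporter called higher with octanal (Slc2a6, chr2:27027999-27028248, minus strand), the hexokinase called lower in both stimulated groups (Hk3, chr13:55021386-55021635, minus strand), the kinase called higher in both (Pdk1, chr2:71872974-71873223, plus strand) and Ldha (chr7:46845554-46845803, plus strand), which is 1 of 12 genes of the set that edgeR called in no comparison and whose window held the most matches. Capitals mark the matches, 5′ to 3′ on the gene's strand.
Slc2a6: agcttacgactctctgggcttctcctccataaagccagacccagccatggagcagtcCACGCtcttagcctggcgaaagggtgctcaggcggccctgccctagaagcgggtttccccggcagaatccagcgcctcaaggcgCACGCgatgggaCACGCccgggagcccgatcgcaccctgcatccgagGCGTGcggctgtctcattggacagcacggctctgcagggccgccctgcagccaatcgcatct
Hk3: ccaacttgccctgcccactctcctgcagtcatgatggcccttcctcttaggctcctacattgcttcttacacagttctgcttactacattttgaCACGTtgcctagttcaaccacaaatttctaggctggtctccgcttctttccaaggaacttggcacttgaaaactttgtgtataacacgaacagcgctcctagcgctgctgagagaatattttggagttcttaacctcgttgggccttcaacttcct
Pdk1: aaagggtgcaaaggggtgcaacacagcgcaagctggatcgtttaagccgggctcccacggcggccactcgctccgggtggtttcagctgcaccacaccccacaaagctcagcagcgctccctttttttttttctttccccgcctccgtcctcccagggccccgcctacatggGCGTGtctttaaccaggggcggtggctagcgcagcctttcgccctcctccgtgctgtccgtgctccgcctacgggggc
Ldha: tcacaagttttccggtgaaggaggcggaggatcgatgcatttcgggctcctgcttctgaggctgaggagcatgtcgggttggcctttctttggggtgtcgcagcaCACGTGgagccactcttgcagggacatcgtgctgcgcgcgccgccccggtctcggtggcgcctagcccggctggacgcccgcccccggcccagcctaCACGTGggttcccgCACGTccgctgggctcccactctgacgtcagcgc
Slc2a6 held 4 matches of GCGTG, Hk3 1 of ACGTG, Pdk1 1 of GCGTG and Ldha 5 of ACGTG counted by strand, with 2 CACGTG among them. A match is a description of these letters and not a bound site.

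Most pentose phosphate genes were lower after LPS. In LPS against untreated cells, 4 of the 5 were called lower and 0 higher, against 17.6% and 15.2% of all genes, and their summed level was between 3299 and 4345 CPM with octanal, 1803 and 2592 CPM in LPS, and 2943 and 4428 CPM in untreated libraries. G6pdx (chrX:74409483-74429194, minus strand), the first and rate-setting enzyme, had 304, 394 and 400.0 CPM in LPS with octanal libraries, 202, 245 and 278 CPM in LPS libraries, and 576, 297 and 458 CPM in untreated libraries. LPS libraries were lowest, and the octanal and untreated libraries overlapped. G6pdx was 1.83 times lower in LPS than in untreated cells (log2 fold change -0.88 ± 0.24, adjusted p = 0.023), lost without LPS replicate 1 or 2 (adjusted p = 0.086 and 0.064) or untreated replicate 1 or 3 (0.069 and 0.058). Tkt (chr14:30548359-30574720, plus strand), the transketolase that links the pathway back to glycolysis, had 621, 638 and 827 CPM in LPS with octanal libraries, 326, 466 and 469 CPM in LPS libraries, and 1027, 685 and 969 CPM in untreated libraries. LPS libraries lay below all others, and the other groups overlapped. Tkt was 2.13 times lower in LPS than in untreated cells (log2 fold change -1.09 ± 0.21, adjusted p = 0.0071, called in all 9 leave-one-out fits).

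Pgd, the second NADPH-making enzyme, averaged 1569 ± 225 CPM with octanal, 868 ± 163 in LPS and 1511 ± 329 in untreated cells. Its log2 fold change was -0.80 ± 0.22 for LPS against untreated (adjusted p = 0.025), lost without LPS replicate 1 or 3 (adjusted p = 0.094 and 0.062) or untreated replicate 1 or 3 (0.067 and 0.073), and with only the 6 libraries of both groups (0.050). Pgls, the lactonase, averaged 43.8 ± 1.84, 42.7 ± 1.75 and 59.5 ± 9.78 CPM in LPS with octanal, LPS and untreated cells, with -0.48 ± 0.12 for LPS against untreated (adjusted p = 0.019). The Pgls call was lost without LPS replicate 1 or 2 (adjusted p = 0.057 and 0.055) and with limma on FPKM (0.073), while with octanal against untreated it gave -0.44 ± 0.12 (adjusted p = 0.057, 0.035 without untreated replicate 3 and 0.013 by DESeq2). Taldo1, the transaldolase, averaged 1226 ± 187, 746 ± 169 and 981 ± 183 CPM in LPS with octanal, LPS and untreated cells and was not called by edgeR. With octanal against LPS the log2 fold changes were 0.60 for G6pdx, 0.04 for Pgls, 0.85 for Pgd, 0.73 for Tkt and 0.72 for Taldo1, none of which passed edgeR's adjusted test (adjusted p = 0.19, 0.88, 0.083, 0.11 and 0.12). DESeq2 called Pgd (0.0029), Tkt (0.012) and Taldo1 (0.018) higher there. Neutrophil markers, given above, also had their lowest sums in the 3 LPS libraries. So did classical monocyte markers (4600.3 to 7198 CPM in LPS) and macrophage markers (454 to 722 CPM in LPS). T cell and NK cell markers had their highest sums there, and sums for the other cell types overlapped with other libraries. The part of these markers in this result was not tested.

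Other genes next to the pathway were read from lists of the same kind. Of 13 tested further enzymes of glycolysis and gluconeogenesis, LPS against untreated called 4 lower and 0 higher, against 17.6% and 15.2% of all genes, namely Adpgk (log2 fold change -2.77, adjusted p = 0.0013), which phosphorylates glucose with ADP, Galm (-2.31, 0.0025), Fbp1 (-3.29, 0.0033) and Pgm2 (-0.47, 0.027). Fbp1, the gluconeogenic bisphosphatase, was scarce at 1.20, 0.159 and 1.58 CPM in LPS with octanal, LPS and untreated cells. Adpgk averaged 94.5 ± 43.1, 46.2 ± 5.90 and 315 ± 88.6 CPM in those groups, and with octanal it was still lower than in untreated cells (-1.74, adjusted p = 0.019), as was Galm (-1.39, 0.039). Pgk2, Fbp2 and Tktl2 had no count in any library.

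Among 15 tested genes of lactate and pyruvate use, 4 were called lower in LPS against untreated, Slc16a7 (log2 fold change -3.01, adjusted p = 0.0015), Mpc2 (-0.77, 0.0054), Pcx (-1.08, 0.022) and Pdp1 (-0.62, 0.023), and 0 higher, against 17.6% and 15.2% of all genes. Slc16a7, the carrier MCT2, averaged 3.57, 1.58 and 12.8 CPM in LPS with octanal, LPS and untreated cells, and Slc16a7 and Pdp1, the phosphatase that opposes the kinases, were also lower with octanal against untreated (-1.84 and -0.77, adjusted p = 0.022 and 0.028). Of 8 tested pentose phosphate genes outside the set, H6pd (-1.18, adjusted p = 0.0057), Rpe (-0.71, 0.0069) and Dera (-0.51, 0.035) were called lower in LPS against untreated, and Prps1 (0.60, 0.019) and Shpk (0.87, 0.048) higher, against the same shares. With octanal against untreated, 0 of these 8 passed edgeR's adjusted test and 2 were lower and 0 higher at an unadjusted p under 0.05, against 16.4% and 11.0% of all genes. The 3 other glucose transporters tested gave 0 calls with edgeR in any comparison, with 2 higher at an unadjusted p under 0.05 in LPS against untreated, against 22.3% of all genes, and 1 lower in LPS with octanal against LPS, against 8.69%.

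Glycogen enzymes were called in both directions. In LPS against untreated cells 5 of 9 were called lower, among them the primer protein gene Gyg (log2 fold change -1.93, adjusted p = 6.6e-04), the liver-type phosphorylase Pygl (-1.95, 0.0025) and the synthase Gys1 (-1.14, 0.0071), and 2 higher, the phosphorylases Pygb (0.63, 0.014) and Pygm (1.31, 0.048), against 17.6% lower and 15.2% higher of all genes. Pygl averaged 466 ± 134 CPM with octanal, 185 ± 48.4 in LPS and 718 ± 229 in untreated cells. With octanal against untreated, the branching enzyme Gbe1 was higher (1.14, adjusted p = 0.020) at 120.5 ± 19.4, 82.5 ± 21.3 and 54.7 ± 11.1 CPM in LPS with octanal, LPS and untreated cells. Gyg was lower with octanal than in untreated cells (-1.28, adjusted p = 0.0073). For LPS with octanal against LPS, edgeR called 0 genes of all these lists, and at an unadjusted p under 0.05 there were 6 of 9 glycogen genes higher and 1 lower, against 13.6% and 8.69% of all genes.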

How the data were processed

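Per the labels' protocols, TRIzol RNA was sequenced after an mRNA kit. The authors deposited raw counts per gene and library with FPKM beside them, per the file headers, on GRCm38, per the submitters' processing notes. The sources used here name no aligner, counter or strand setting. Totals ran from 29594291 to 38388421 counts. All 9 libraries entered 1 edgeR 4.0.16 fit (R 4.3.3, TMM, filterByExpr, quasi-likelihood), and p-values were adjusted over 15447 genes. CPM use TMM-scaled totals. Errors are SD for means and SE for log2 fold changes. An adjusted p is edgeR's unless another tool is named. Alternatives were DESeq2 1.42.0, limma 3.58.1 on log2(FPKM + 0.5), other filters and scalings, and leaving out each library.

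Positions and transcripts are GENCODE M21. Values in every library are given for called genes with an absolute log2 fold change of at least 1, and for Slc2a1, Hk2, Pfkfb3, Gapdh, Pkm, Ldha, Hif1a and G6pdx. Up to 4 called genes of lowest p are named per other list, while Shpk, Car9, Pygb, Pygm and the library values of Slc16a3 were added after their values were seen. Some genes of these lists are not reported here. The gene set, lists and rules were chosen with earlier results of these data known. Replicates differed from each other by more than counting noise.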

Additional observations from a re-analysis of the deposited data

How the results depend on the processing

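Of the 33 genes, calls in LPS against untreated numbered 19, and between 8 and 21 without 1 library: 8, 12 and 9 without LPS replicate 1, 2 and 3, and 13, 21 and 10 without untreated replicate 1, 2 and 3. Of the 19, 7 held in all 9 such fits. Of all genes tested, 32.8% were called there, and between 15.1% and 35.8% without 1 library. In LPS with octanal against LPS, 0 were called by edgeR, 13 by DESeq2, 2 without a filter, 2 with a filter at 10 CPM, 1 without the NewGene loci, 1 by limma on FPKM with either pseudocount, 6 with only the 6 libraries of both groups, and between 0 and 4 without 1 library. In LPS with octanal against untreated, 7 were called, 11 by DESeq2, 2 with only the 6 libraries of both groups and between 2 and 8 without 1 library (2 without LPS with octanal replicate 2, 4 without replicate 3, LPS replicate 3 or untreated replicate 1). Over all genes tested, LPS with octanal against LPS gave 0 calls, against 1800 by DESeq2, 1380 with 6 libraries and 150 by limma, and LPS with octanal against untreated 1339, against 2798 by DESeq2 and 404 with 6 libraries. In LPS with octanal against LPS, edgeR called 1.29% of all genes without a filter, 3.44% at 10 CPM and 0.877% without the NewGene loci. Without 1 library it called between 0% and 3.68%. In LPS with octanal against untreated the share was 8.67%, and between 1.88% and 13.5% without 1 library. Of all calls in LPS against untreated, 46.4% were higher, and 60.4% by limma on FPKM. No called gene of the set changed direction under any alternative. Some that were not called did so. Pfkfb3 in LPS with octanal against LPS gave -0.00 with the filter at 10 CPM and with the replicate block, and -0.11 by limma on FPKM; Ldha gave -0.03 and Pgls -0.08 by limma there. Pfkp in LPS with octanal against untreated gave -0.02 with the filter at 10 CPM. Leaving out 1 library gave, in LPS against untreated, -0.33 to 0.00 for Slc2a6, -0.09 to 0.18 for Pgk1, -0.11 to 0.20 for Ldha and -0.09 to 0.25 for Slc16a1. In LPS with octanal against LPS it gave -0.04 to 0.53 for Pfkl, -0.18 to 0.13 for Pfkfb3 and -0.11 to 0.10 for Pdk1. In LPS with octanal against untreated it gave -0.27 to 0.12 for Hk2, -0.05 to 0.09 for Pfkp, -0.56 to 0.19 for Gapdh, -0.28 to 0.02 for Pgam1, -0.01 to 0.29 for Ldha, -0.19 to 0.19 for Slc16a3 and -0.12 to 0.19 for Pgd. The replicate number as a block gave 21, 0 and 7 calls in the 3 comparisons, against 27.6%, 0% and 5.98% of all genes. Whether the numbers pair the samples is not stated. Deviations from group means correlated at -0.0898 to 0.179 over the 9 pairs of same-numbered samples, and at -0.149 to 0.208 between differently numbered ones. With 3 libraries a group, these values cannot settle whether samples were paired. The cause of the changes in calls and direction was not tested. The filter at 10 CPM left out Aldoc, Ldhb and Pfkm, and 3 libraries a group limit the precision.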
